A study of Danio rerio with 12 samples.

Results

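Crystallins are the abundant structural proteins of the eye lens. The genes described here are 8 zebrafish crystallins: the gamma-N crystallin crygn2, the acidic beta crystallins cryba1a, cryba1b, cryba2a, cryba2b and cryba4, the basic beta crystallin crybb1, and the alpha crystallin cryaa. Their probes were found by gene name, through the RefSeq accession of each array probe. They had 24 probes, of 26854 named probes for 14016 genes and 43603 probes in all. Only probes that the scanner software marked as well above background on every array of some group were used. This left 20 probes for 7 of the 8 genes, and cryaa was the gene left out.

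Beta and gamma crystallins share a fold built from Greek-key motifs, and packed at very high concentration in lens fibre cells they give the lens its refractive index. Beta crystallins assemble into dimers and larger complexes in which acidic and basic members can mix, whereas gamma crystallins are monomers. Gamma-N crystallins combine features of both families. Alpha crystallins belong to the small heat shock proteins and act as chaperones that keep damaged lens proteins in solution. In zebrafish the lens forms from head ectoderm during the segmentation period, and fibre cells begin to elongate and fill with crystallins around its end.

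RNA came from pools of 18 to 35 whole embryos of the AB strain, which were raised at 28.5 °C and hybridised singly to 12 one-colour Agilent arrays. The groups had 3 arrays each. They were embryos with PCSK7 plus p53 morpholinos at 24 h after fertilization, control morpholino embryos at 24 h, embryos with PCSK7 plus p53 morpholinos at 6 h, and control morpholino embryos at 6 h. Each morpholino, an antisense oligonucleotide that blocks translation or splicing, was put into the yolk at the 1 to 4 cell stage in amounts between 0.25 and 1.0 pmol. PCSK7 is a proprotein convertase, a protease that trims secreted precursors, and the series asked how its loss affects development and the growth factor TGF-beta 1a. No group had either morpholino of the PCSK7 and p53 pair alone, so their effects cannot be told apart. No probe was named pcsk7 (0 probes), and the level of that transcript was not analysed here. The labels do not say that the pools came from separate clutches, so a p-value here reflects the variation among these pools, which may be technical. All arrays of PCSK7+p53 embryos lay on other slides than the control arrays and were scanned in another session. Slide and scan session therefore cannot be told apart from the morpholinos. The PCSK7+p53 arrays of 24 h and of 6 h were also on a slide each, so slide and time cannot be told apart in these embryos, whereas each control slide held both times. The 75th percentile of signal on each array was 1022 to 1087 at 24 h in PCSK7+p53 embryos and 695 to 993 in controls. At 6 h it was 634 to 730 in PCSK7+p53 embryos and 403 to 513 in controls.

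Signals below are relative signals, a probe's processed signal divided by the 75th percentile of its array, so that a value of 1 equals that percentile. Levels of different probes are not comparable. Changes are log2 differences, PCSK7+p53 minus control, with the standard error (SE) of limma's fit over all 12 arrays and a p-value adjusted over all 36741 kept probes. A call is an adjusted p under 0.05. A gene is represented by its brightest kept probe, the one with the highest mean log2 signal over the 12 arrays.

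At 24 h all 7 measured genes of this set of beta and gamma-N crystallins were lower in PCSK7+p53 embryos than in controls. The set was chosen with earlier results of these data known. Other beta and gamma-N crystallins, given below, were not all lower. Of all 12509 genes measured at that time, 25.9% were called lower. The median change of the 7 genes was -1.28, against -0.03 over all genes. By each gene's brightest probe, the fall was largest for crygn2, crybb1 and cryba1b and smallest for cryba1a, whose other probe fell by more. In none of the 7 genes did the 2 groups overlap, a pattern seen toward lower values in 34.7% of all genes. In RNA from whole embryos, fewer lens cells and less crystallin RNA per lens cell cannot be told apart.

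**Figure D1:**
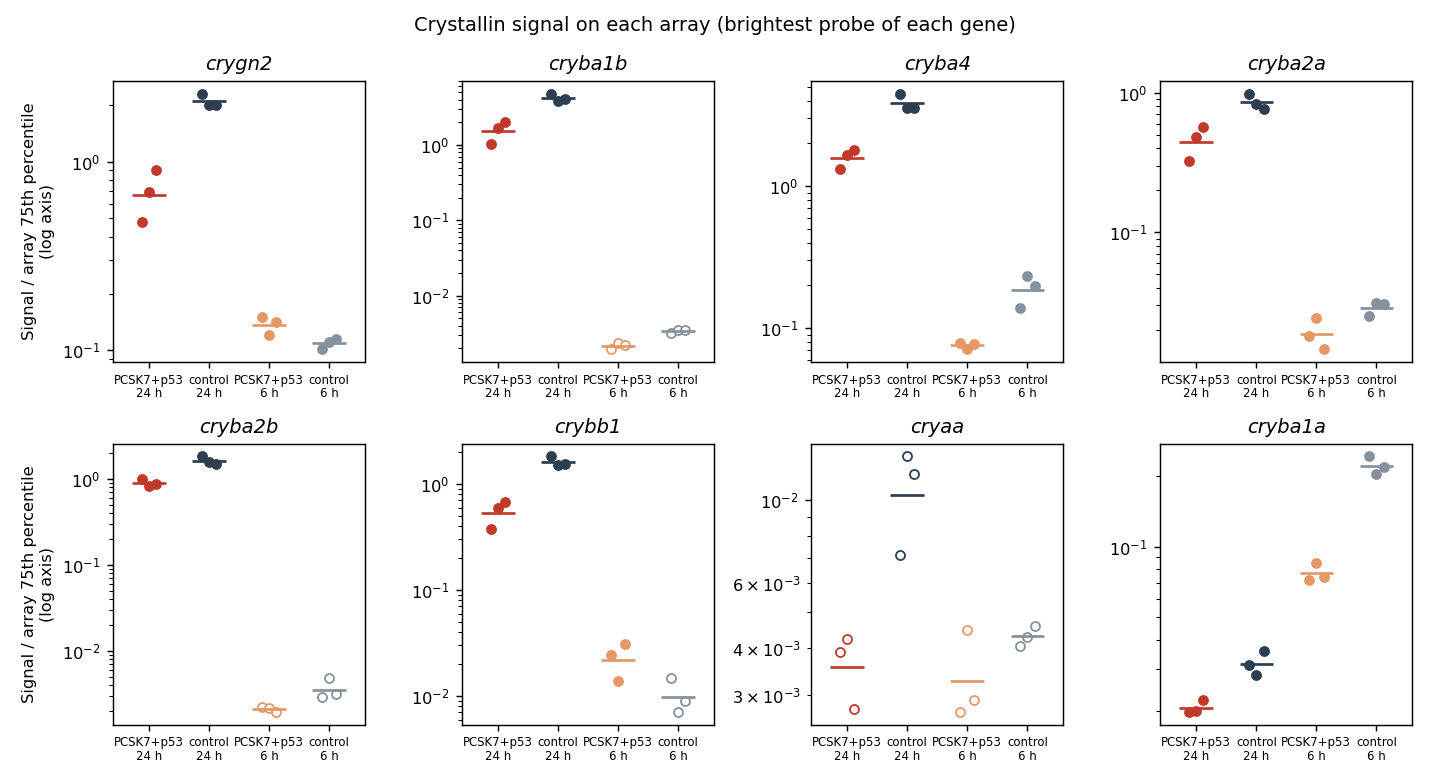
Relative signal of the brightest probe of each crystallin gene on every array (log axis, each panel with its own scale). Points are arrays, open in groups whose spots were not all well above background, and the lines are geometric means. The PCSK7+p53 arrays lie below all control arrays at 24 h in the 7 measured genes, and cryaa is open throughout.

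The gamma-N crystallin crygn2 had relative signals of 0.479, 0.695 and 0.9004 in PCSK7+p53 embryos and 2.29, 1.99 and 2.00 in control embryos at 24 h. Every PCSK7+p53 array was below every control array, and the highest of them reached 43.1% of the control mean. The gene fell by 1.64 (SE 0.19, limma adjusted p = 0.000113).

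Among the acidic beta crystallins, cryba1b had the largest change. Its relative signals were 1.02, 1.70 and 2.00 in PCSK7+p53 embryos and 4.78, 3.89 and 4.10 in controls. The groups were well apart, and the log2 change was -1.48 (SE 0.21, adjusted p = 0.000321). The relative signals of cryba4 were 1.32, 1.67 and 1.79 in PCSK7+p53 embryos and 4.47, 3.54 and 3.57 in controls. Again the groups did not overlap, and cryba4 fell by 1.28 (SE 0.18, adjusted p = 0.000368). The paralogs cryba2a and cryba2b changed less. For cryba2a the relative signals were 0.323, 0.484 and 0.565 in PCSK7+p53 embryos and 0.985, 0.835 and 0.766 in controls. The lowest control array stood above the highest PCSK7+p53 array, and the log2 change was -0.95 (SE 0.23, adjusted p = 0.00698). For cryba2b the relative signals were 1.00, 0.821 and 0.876 in PCSK7+p53 embryos and 1.83, 1.59 and 1.48 in controls. These groups were also separate, with a log2 change of -0.86 (SE 0.17, adjusted p = 0.00262). The call for cryba2b was lost with quantile normalization (-0.88, adjusted p = 0.105) and in the authors' deposited table of processed values (-0.92, adjusted p = 0.168). The other 6 genes were called lower in both of these settings.

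The acidic beta crystallin cryba1a gave processed signals of 20.3 to 23.7 in PCSK7+p53 embryos and 24.9 to 31.0 in controls at 24 h on its brightest probe. Its relative signals were 0.0197, 0.0199 and 0.0222 in PCSK7+p53 embryos and 0.0312, 0.0284 and 0.0358 in controls. All 6 arrays were well above background, the groups did not overlap, and cryba1a fell by 0.62 (SE 0.11, adjusted p = 0.00103). This probe is the brightest over all arrays through its signal at 6 h. The other probe was brighter at 24 h, at 23.0 to 36.2 in PCSK7+p53 embryos and 38.6 to 65.2 in controls. That probe fell by 1.08 (SE 0.17, adjusted p = 0.000764).

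The basic beta crystallin crybb1 had relative signals of 0.377, 0.597 and 0.675 in PCSK7+p53 embryos and 1.82, 1.53 and 1.54 in controls. The highest PCSK7+p53 array reached 41.7% of the control mean and the lowest 23.3%. The log2 change was -1.60 (SE 0.34, adjusted p = 0.00370). In the RefSeq gene table of assembly GRCz12tu, crybb1 and cryba4 are neighbours. The genes crygn2, cryba1b, cryba2a and cryba2b have no crystallin as a neighbour there.

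The alpha crystallin cryaa gave no usable level. Of its 4 probes, 1 was well above background on 1 control array at 24 h, and no other spot was, on any of the 12 arrays. The brightest readings were processed signals of 2.94 to 4.34 in PCSK7+p53 embryos and 7.06 to 11.8 in controls at 24 h for 1 probe, and 2.41 to 6.45 in PCSK7+p53 embryos and 7.52 to 11.3 in controls for another. No fold is given for cryaa, since the spots were not well above background in either group.

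All 20 kept probes of the 7 genes were called lower at 24 h, against 25.1% of all probes measured at that time. Their log2 changes ran from -1.69 to -0.62, and the highest adjusted p was 0.0374. The groups did not overlap on any of the 20 probes. Toward lower values this was seen in 34.7% of all genes by their brightest probe, and the share over all probes was not counted. The 4 probes of crybb1 lay between -1.69 and -1.49 and the 4 of cryba2a between -1.07 and -0.91. The 2 probes of cryba1b gave -1.59 and -1.48, and those of cryba4 gave -1.28 and -1.22. The spread within a gene was wider for crygn2, where 2 probes gave -1.64 and the dimmest gave -0.95. It was also wider for cryba2b, at -1.18, -0.86 and -0.70. Probes of 1 gene share the same 12 RNA pools and are not separate replicates.

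**Figure D2:**
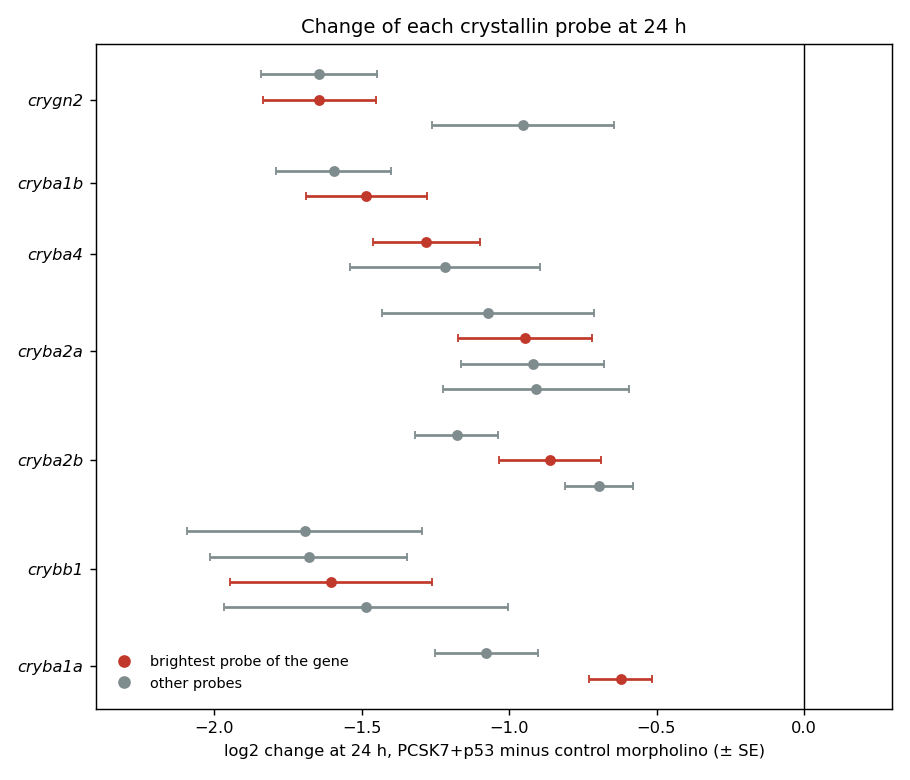
Log2 change at 24 h, PCSK7+p53 minus control morpholino, of each of the 20 kept crystallin probes, with the SE of limma's fit (3 arrays per group). Red points are the brightest probe of each gene and grey points its other probes. All points lie left of 0, between -1.69 and -0.62.

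The 3 PCSK7+p53 arrays at 24 h did not lose the same amount. Replicate 1 was the lowest of the 3 for 6 of the 7 genes, and cryba2b was the exception. Over 12028 genes above background on all 6 arrays at 24 h, replicate 1 was the lowest of the 3 in 36.6%. As a percentage of the control mean, crygn2 stood at 22.9, 33.2 and 43.1 on replicates 1, 2 and 3, and cryba1b at 24.2, 40.1 and 47.2. The gene crybb1 followed the same order at 23.3, 36.8 and 41.7, as did cryba2a at 37.6, 56.4 and 65.9. For cryba4 the percentages were 34.4, 43.4 and 46.7, and for cryba1a they were 62.3, 62.9 and 70.1. The order was different for cryba2b, whose percentages were 61.5, 50.4 and 53.8.

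The spread between replicate arrays was wider in PCSK7+p53 embryos than in controls for 5 of the 7 genes. The median SD of the log2 values over the 7 genes was 0.42 in PCSK7+p53 embryos and 0.16 in controls, whereas over all 12028 genes it was 0.09 in both groups. The SD of cryba1b in PCSK7+p53 embryos, 0.50, was above that of 99.1% of all genes. For crygn2, crybb1 and cryba2a it was above 98.4% to 98.8%, and for cryba4, at 0.23, above 91.2%. The exceptions were cryba2b, with an SD of 0.15 in PCSK7+p53 embryos and 0.16 in controls, and cryba1a, with 0.094 in PCSK7+p53 embryos and 0.17 in controls. Without replicate 1 of the PCSK7+p53 embryos the 7 genes were still called lower, with crygn2 at -1.40 and cryba1b at -1.20.

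**Figure D3:**
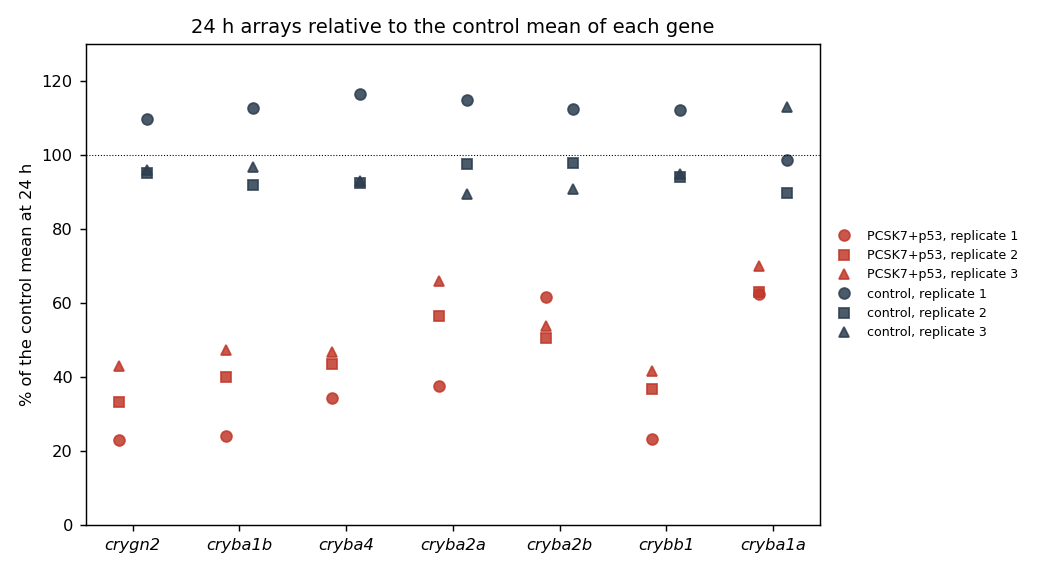
Signal of the brightest probe of each gene on the 6 arrays at 24 h, as a percentage of that gene's control mean (geometric mean of 3 arrays, dotted line at 100). Circles, squares and triangles are replicates 1, 2 and 3, which do not pair samples across groups. PCSK7+p53 arrays lie between 22.9% and 70.1%, and replicate 1 is the lowest of the 3 except for cryba2b.

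At 6 h, in the early gastrula before any lens exists, only some of these probes carried signal. The genes cryba1b and cryba2b were not well above background on any array at 6 h. The other 5 genes had 9 probes that were above background in at least 1 group. Of those 5 genes, 3 were lower in PCSK7+p53 embryos and 1, crybb1, was higher. The gene crybb1 passed the background filter through the PCSK7+p53 arrays alone, and with signal required in both groups 0 genes were called higher. Over all 11185 genes measured at 6 h, 29.4% were called lower and 35.5% higher.

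The brightest probe of cryba1a had relative signals of 0.0720, 0.0848 and 0.0743 in PCSK7+p53 embryos and 0.242, 0.204 and 0.218 in controls at 6 h. It fell by 1.52 (SE 0.11, adjusted p = 2.07e-06), a larger change than at 24 h, and its other probe fell by 0.90 (SE 0.17, adjusted p = 0.00129). For cryba4 the relative signals at 6 h were 0.0783, 0.0710 and 0.0768 in PCSK7+p53 embryos and 0.139, 0.231 and 0.196 in controls. The groups were apart, and cryba4 fell by 1.29 (SE 0.18, adjusted p = 0.000176). The other probe of cryba4 was not above background at 6 h. The dim signals of cryba2a were 0.0180, 0.0243 and 0.0145 in PCSK7+p53 embryos and 0.0252, 0.0309 and 0.0306 in controls, with a change of -0.63 (SE 0.23, adjusted p = 0.0339). That call was lost without any 1 of 4 of the 6 arrays, with adjusted p up to 0.125 without PCSK7+p53 replicate 3.

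The gene crybb1 went the other way at 6 h, close to the detection limit. Its brightest probe gave relative signals of 0.0244, 0.0138 and 0.0308 in PCSK7+p53 embryos, where all 3 spots were well above background. In controls it gave 0.0149, 0.00709 and 0.00895, and none of the 3 spots was. The lowest PCSK7+p53 array was below the highest control array, so the groups overlapped. The bound was at least 1.43-fold higher in PCSK7+p53 embryos, with a fitted log2 change of 1.15 (SE 0.34, adjusted p = 0.0145). For this bound the control mean was replaced, on each array, by the array's dimmest signal among probes above background, where that exceeded the probe's own signal. That dimmest signal was 0.0145 to 0.0156 on the control arrays at 6 h and 0.00875 to 0.0108 on the PCSK7+p53 arrays. The detection limit thus differed between the groups, and its part in the counts of spots above background was not tested. The call was lost without control replicate 2 (adjusted p = 0.0564) and without PCSK7+p53 replicate 3 (adjusted p = 0.0571), and also with the mean of the gene's probes (0.79, adjusted p = 0.0538). With normexp background correction the change was -0.28 and was not called. That correction moved the median change of all probes at 6 h to -0.27, from -0.04 with the processed signals.

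The brightest probe of crygn2 gave relative signals of 0.150, 0.120 and 0.142 in PCSK7+p53 embryos and 0.101, 0.111 and 0.115 in controls at 6 h. The groups did not overlap, but the difference of 0.33 was not called (SE 0.19, adjusted p = 0.161). It was called in the fit of only these 2 groups (0.33, adjusted p = 0.0419) and with the mean of the gene's probes (0.89, adjusted p = 0.00457), whereas with normexp it was -0.06. That mean includes the dimmest probe, with a fitted change of 1.63, which was above background at 6 h on 2 PCSK7+p53 arrays and 0 control arrays. The other probe above background at 6 h gave 0.0983, 0.0832 and 0.112 in PCSK7+p53 embryos and 0.0548, 0.0699 and 0.0540 in controls. It was 0.72 higher in PCSK7+p53 embryos (SE 0.20, adjusted p = 0.00984), so the probes of crygn2 differ in their call at 6 h. The 75th percentile, by which signals were divided, was higher on each PCSK7+p53 array than on each control array at 6 h, and its part in these small differences was not tested.

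The change at 24 h was compared with the change at 6 h by the interaction term of the fit, for genes above background in at least 1 group at each time. Of the 5 genes, 2 had a lower effect at 24 h than at 6 h and 1 had a higher one. Over 10840 genes, 31.0% were called lower and 22.0% higher in this comparison. The gene crygn2, above background in both groups at both times, had a difference of -1.97 (SE 0.27, adjusted p = 0.000285). That call was kept in all 22 alternative settings, between -2.31 and -1.49. For crybb1 the fitted difference was -2.75 (SE 0.48, adjusted p = 0.00122), but it rests on control spots at 6 h that were not above background, so its size was not measured. With signal required in both groups crybb1 gave no value, and crygn2 was the 1 gene called lower. The opposite held for the brightest probe of cryba1a, whose effect at 24 h was 0.90 higher than at 6 h (SE 0.15, adjusted p = 0.000865). The other probe of cryba1a did not show this (-0.17, SE 0.25, adjusted p = 0.591), and with the mean of both probes the call was lost (0.36, adjusted p = 0.0583). For cryba4, by the 1 probe above background at 6 h, the difference was 0.01 (SE 0.26, adjusted p = 0.970). For cryba2a it was -0.31 (SE 0.32, adjusted p = 0.456), and neither was called.

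**Figure D4:**
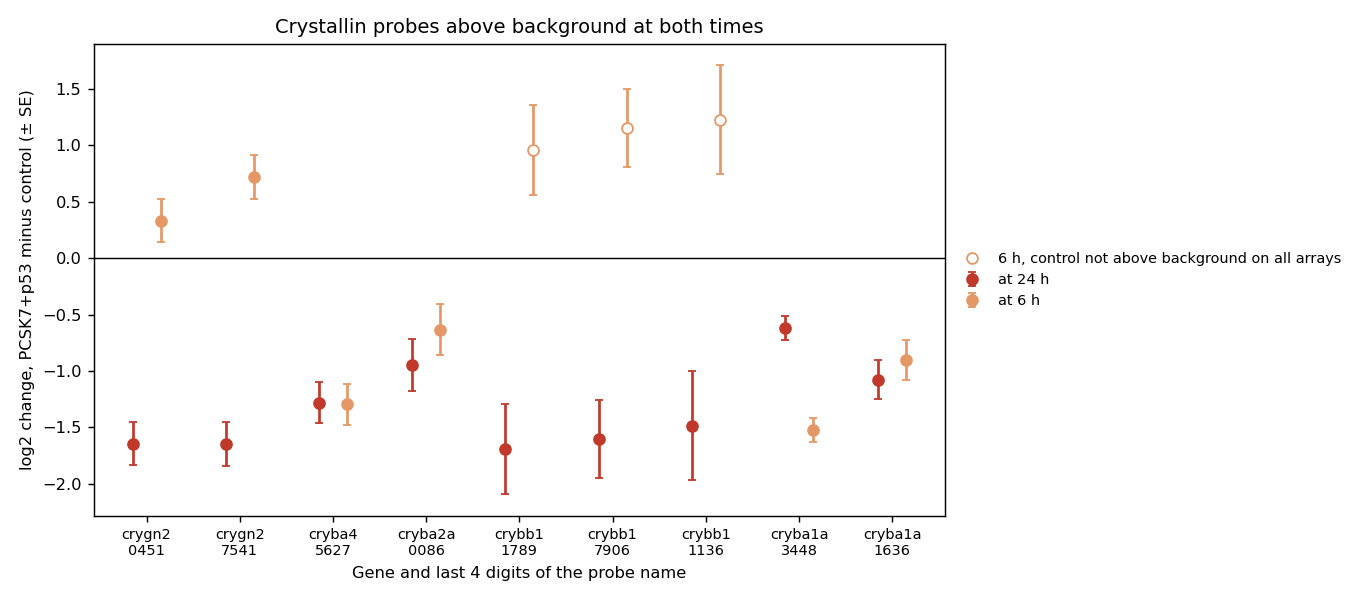
Log2 change, PCSK7+p53 minus control morpholino, at 24 h (red) and at 6 h (orange) for the 9 crystallin probes above background in at least 1 group at each time, with the SE of the fit. Open symbols mark crybb1 at 6 h, where the control spots were not all above background. The probes of crygn2 and crybb1 are above 0 at 6 h and below 0 at 24 h, and those of cryba4, cryba2a and cryba1a are below 0 at both times.

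Between 6 h and 24 h most of these genes rose in both groups. In PCSK7+p53 embryos 6 of the 7 genes were higher at 24 h and 1 was lower, and the counts were the same in controls. Among all genes the shares called higher were 47.6% in PCSK7+p53 embryos and 48.2% in controls, and the shares called lower were 43.5% in PCSK7+p53 embryos and 43.7% in controls. The gene cryba1b, not above background at 6 h, was at least 157-fold higher at 24 h in PCSK7+p53 embryos and at least 281-fold higher in controls. For cryba2b the bounds were at least 92.6-fold in PCSK7+p53 embryos and at least 108-fold in controls. All of these bounds compare the brightest probe with the detection limit at 6 h, and the adjusted p of each fit was below the threshold. That limit differed between the groups, as given above for crybb1, so bounds of PCSK7+p53 embryos and of controls are not directly comparable.

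Where the level at 6 h was measured, the rise could be given as a fold. The gene crygn2 was 4.89-fold higher at 24 h in PCSK7+p53 embryos and 19.2-fold higher in controls. For crybb1 the rise was 24.5-fold in PCSK7+p53 embryos and at least 106.6-fold in controls. By its brightest probe the rise of cryba4 was nearly the same in the groups, at 21.0-fold in PCSK7+p53 embryos and 20.8-fold in controls. Its other probe, not above background at 6 h, rose at least 33.5-fold in PCSK7+p53 embryos and at least 50.1-fold in controls. The size of the rise of cryba4 thus depends on the probe, and these bounds also rest on the unlike detection limits of the groups. The brightest probe of cryba2a rose 24.0-fold in PCSK7+p53 embryos and 29.8-fold in controls. The difference between the rises of the brightest probes is the interaction term given above. It is called for crygn2, and for crybb1 with the limit stated there, and not for cryba4 and cryba2a. The comparisons between times and between morpholinos share arrays and are not independent.

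The gene cryba1a was the one that was lower at 24 h by its brightest probe. That probe changed by -1.90 in PCSK7+p53 embryos (SE 0.11) and by -2.80 in controls (SE 0.11), with its highest signal in 6 h controls. Its other probe was higher at 24 h, by 0.56 in PCSK7+p53 embryos (SE 0.17, adjusted p = 0.0104) and by 0.74 in controls (SE 0.17, adjusted p = 0.00208). The 2 probes of cryba1a thus disagree in direction over time, and the developmental direction of this gene is uncertain. In the gene table cryba1a overlaps unc119a1 and crybb1l3, and which transcripts each probe detects was not tested.

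Other crystallins outside the gamma-M group did not move together at 24 h. Of 17 such genes 14 had a probe, and 11 were measured. In PCSK7+p53 embryos 4 of the 11 were lower and 4 higher, with a median change of -0.14. That median is the value of cryba1l2 by its brightest probe, and the gene's other probes, given below, were called lower. The count and the median thus depend on the choice of probe. Over all measured genes 25.9% were called lower and 21.4% higher. The lower ones were the beta crystallins cryba1l1 (-1.74, SE 0.18, adjusted p = 6.02e-05) and crybb1l2 (-1.22, SE 0.37, adjusted p = 0.0222) and the gamma-S crystallins crygs3 (-1.49, SE 0.24) and crygs2 (-0.55, SE 0.12). The higher ones were crygs4 (1.75, SE 0.22, adjusted p = 0.000156), crygs1 (0.78, SE 0.28, adjusted p = 0.0423), the gamma-N crystallin crygn1 (1.04, SE 0.21, adjusted p = 0.00268) and the alpha crystallin cryabb. Without PCSK7+p53 replicate 3 the number called higher was 2. The calls for crygs2 and cryabb rest on dim spots. At 24 h processed signals of crygs2 were 11.9 to 13.1 in PCSK7+p53 embryos and 13.8 to 16.8 in controls. Those of cryabb were 21.1 to 35.0 in PCSK7+p53 embryos and 4.09 to 15.7 in controls. At 6 h, before any lens exists, cryba1l1 was already lower in PCSK7+p53 embryos (-1.12, SE 0.18, adjusted p = 0.000423), as was crygs3 (-0.89, SE 0.24, adjusted p = 0.00827). At that time crygs2 was higher (0.67, SE 0.12, adjusted p = 0.000988). Also lower at 6 h were crybgx (-0.91, SE 0.07, adjusted p = 5.79e-06) and crybb3 (-0.56, SE 0.13, adjusted p = 0.00472). Of 7 such genes measured at 6 h, 4 were lower and 2 higher, against 29.4% lower and 35.5% higher over all genes. The brightest probe of crybb1l2 was not above background at 6 h on all arrays of either group.

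The gamma-N pair crygn2 and crygn1 thus stood on opposite sides of 0 at 24 h. However, crygn1 was already 4.29-fold higher in PCSK7+p53 embryos at 6 h, before any lens exists (limma adjusted p = 1.9e-05). At 24 h it was 2.06-fold higher. In controls the signal of crygn1 fell 4.97-fold between 6 h and 24 h. Its relative signals at 24 h were 0.0844, 0.0766 and 0.0886 in PCSK7+p53 embryos and 0.0455, 0.0369 and 0.0391 in controls, with no overlap. In the gamma-S family, crygs4 had 0.131, 0.0963 and 0.103 in PCSK7+p53 embryos and 0.0351, 0.0334 and 0.0291 in controls, also without overlap. The brightest probe of the alpha crystallin cryabb was well above background on all 3 PCSK7+p53 arrays and on 2 of 3 control arrays. It was at least 1.66-fold higher in PCSK7+p53 embryos (adjusted p = 0.0212), and it passed the background filter through those arrays alone. Other probes of cryabb were too dim to be kept. Their mean log2 signals at 24 h were lower in PCSK7+p53 embryos, at -8.55 and -9.04, than in controls, at -5.99 and -7.68. These spots were not well above background on all arrays of either group, so they give no measured direction. The direction of cryabb thus rests on its brightest probe alone. The genes cryaba, crybb1l3 and crybb2 had probes that were not kept.

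At 24 h no call was made for crybb3 (0.05, adjusted p = 0.790), crybgx (-0.20, adjusted p = 0.0515) or cryba1l2 by its brightest probe (-0.14, adjusted p = 0.624). The other 2 probes of cryba1l2 were lower, at -1.32 (SE 0.20, adjusted p = 0.000482) and -1.56 (SE 0.15, adjusted p = 4.35e-05), so the result for that gene depends on the probe. Between 6 h and 24 h in controls these 2 probes rose, at least 7.62-fold and 5.96-fold, whereas the brightest probe changed by -0.99. Gamma-M crystallins, a methionine-rich class abundant in fish lenses, had 19 of 21 measured genes lower, with a median of -2.98 and a range from -3.55 to -0.07. The median over the 7 beta and gamma-N genes described here, -1.28, was a smaller change. These 7 are a chosen part of the beta and gamma-N crystallins measured, and their difference from the gamma-M genes was not tested.

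**Figure D5:**
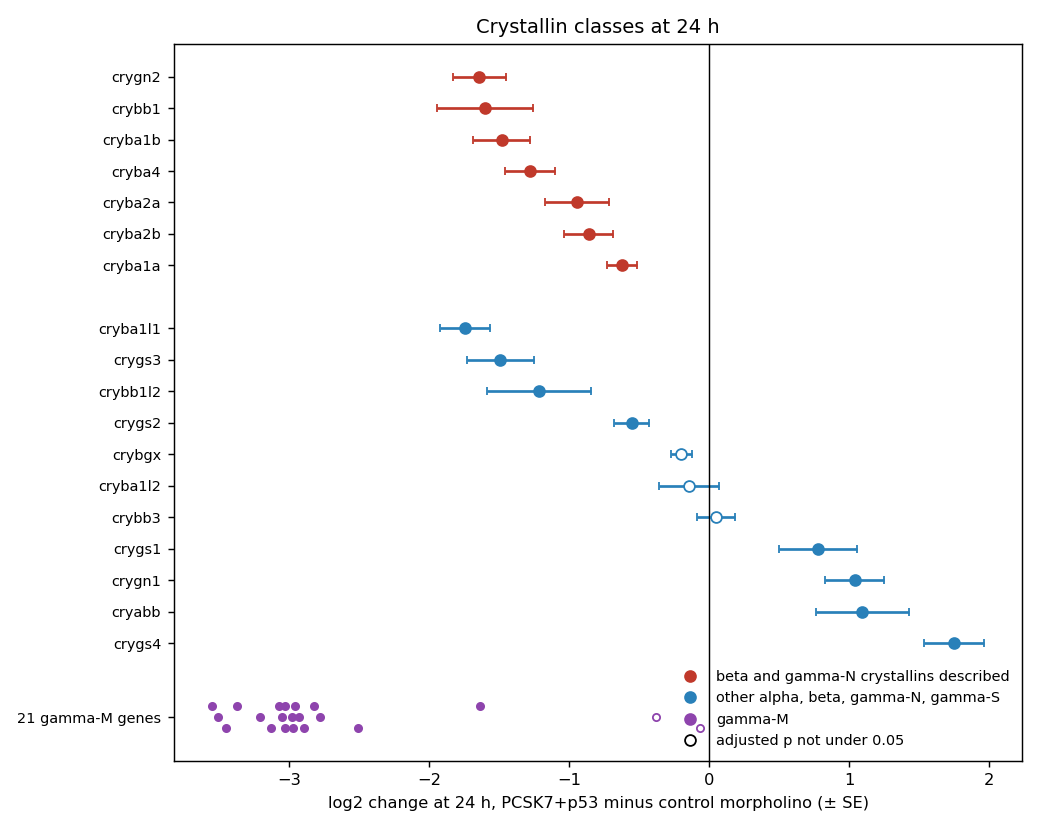
Log2 change at 24 h, PCSK7+p53 minus control morpholino, of the brightest probe of each measured crystallin gene. Red points are the 7 beta and gamma-N genes described, blue points the 11 other genes outside the gamma-M class (both with the SE of the fit) and purple points the 21 gamma-M genes, and open symbols have an adjusted p of at least 0.05. The red points lie between -1.64 and -0.62, the blue points on both sides of 0.

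Genes of lens fibre cells other than crystallins were called lower in 8 and higher in 3 of 18 measured at 24 h, with a median of -0.23. For this and the following lists, the shares over all measured genes were 25.9% lower and 21.4% higher. The protease capn3a changed by -2.04 (SE 0.22), birc7, of the inhibitor of apoptosis family, by -1.47 (SE 0.27) and the lens membrane protein gene lim2.4 by -1.07 (SE 0.39). The change of capn3a was similar at 6 h, before any lens exists, at -2.11 (SE 0.22). Its signal in controls fell 4.16-fold between 6 h and 24 h. The lens water channel mipa changed by -0.95 (SE 0.22, adjusted p = 0.00579) and lim2.1 by -0.76 (SE 0.23). The galectin-related lens gene grifin was higher in PCSK7+p53 embryos by at least 1.47-fold (adjusted p = 0.0365), but the groups overlapped. It was above background on 3 PCSK7+p53 arrays and 1 control array, so it passed the filter through the PCSK7+p53 arrays alone. At 6 h grifin was at least 1.76-fold lower in PCSK7+p53 embryos (adjusted p = 0.0462). The number called lower was 5 without PCSK7+p53 replicate 1, control replicate 1 or control replicate 2, and 4 without control replicate 3. The number called higher was 1 without PCSK7+p53 replicate 3 or control replicate 3. The number lower was also 5 with median scaling, and it was 4 in the authors' deposited table. The number higher was 5 with quantile normalization, and it was 1 with normexp, in the fit of only these 2 groups and with signal required in both groups.

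Transcription factors of lens and eye had 6 genes lower and 6 higher of 28 measured, with a median of 0.06. The number higher was 11 with normexp and 12 in the fit of only these 2 groups. Those with the largest changes were ets2 (-1.67, SE 0.13), six7 (-1.45, SE 0.14), six3b (0.74, SE 0.13), dlx4b (-0.60, SE 0.15), pax6b (-0.59, SE 0.21) and sox1a (0.56, SE 0.18). Markers of retina and eye pigment were called lower in 7 and higher in 3 of 24, with a median of -0.08, a count of lower genes near the share over all genes. The number higher was 5 in the fit of only these 2 groups. The cone opsin opn1sw1 changed by -2.14 (SE 0.29) and the rod opsin rho by -1.19 (SE 0.22). Genes of melanin synthesis, tyrp1b (-1.35, SE 0.17) and tyr (-1.29, SE 0.10), and the retinaldehyde-binding protein gene rlbp1a (-1.08, SE 0.22) were also lower. The eye field factor rx3 was at least 2.36-fold higher in PCSK7+p53 embryos (adjusted p = 0.0303). Its control spots were not all well above background, so rx3 passed the filter at 24 h through the PCSK7+p53 arrays alone. The share of eye tissue in the pools was not tested as a part of the crystallin changes.

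Small heat shock proteins, the family to which alpha crystallins belong, had 2 genes lower and 1 higher of 7 at 24 h, with hspb1 at -0.73 (SE 0.09), hspb8 at -0.55 (SE 0.15) and hspb9 at 0.84 (SE 0.09). The number higher was 2 with cyclic loess, with normexp and in the fit of only these 2 groups, and the number lower was 1 in the authors' deposited table. A last list was drawn up from genes related to crystallins by sequence, enzyme crystallins and some genes of neither kind. Of its 6 measured genes 2 were lower, crybg1a (-0.46, SE 0.12) and cryl1 (-0.37, SE 0.07), and 0 were higher.

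The genes whose pattern over the 6 arrays at 24 h was most like the mean of the 7 crystallins were sought among 12028 genes, by Pearson's r on log2 values centred on each gene's mean. The mean profile of the 7 genes was -0.91, -0.55 and -0.35 on the PCSK7+p53 arrays and 0.75, 0.51 and 0.54 on the control arrays. Apart from crystallins, the 5 nearest genes were apoda.1, gch2, dmtn, zgc:174624 and pou3f1, with r from 0.997 to 0.998. Their log2 changes were -2.15 for apoda.1, -1.29 for gch2, -0.31 for dmtn, -0.26 for zgc:174624 and -0.30 for pou3f1. A high r is common here, since 17.7% of all genes had r above 0.9 and the 6 arrays fall into 2 groups. Each of the 7 crystallins is itself part of that mean, so a high r is partly built in for them. Their r with the mean was 0.998 for crybb1 and crygn2, 0.997 for cryba4, 0.994 for cryba1b, 0.974 for cryba2a, 0.937 for cryba1a and 0.903 for cryba2b.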

How the data were processed

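The deposited scanner files hold spot intensity on a linear scale, which Agilent's scanner software had background-subtracted, per the file headers. The submitters' processing notes name Agilent Feature Extraction 10.7.1. Other columns hold the scanner software's flags for spots well above background, saturated or outlying, as deposited. Outlier spots were left out, spots of a probe were averaged, and 76 of 43603 non-control probes lacked a value on some array. Values were log2 of the intensity minus the array's 75th percentile. The authors' deposited table of processed intensity values (19838 probes, 0 columns without a sample) was used only as an alternative: its columns ranked probes as the scanner signals did (lowest rank correlation 1.00), and its normalization was not stated in the labels or headers.

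Probes were named through RefSeq accessions and a gene table of assembly GRCz12tu, and 15 probes named differently by the 2 annotation releases in the files stayed unnamed. Coordinates and sequences are left out: the array design and the table differ in build, and no sequence table was used. The members and gene lists were chosen with earlier results of these data known. Named genes are all 8 members, every other crystallin with a probe, up to 6 called genes of each list with the largest change at 24 h, and the 5 genes of most similar pattern. Gamma-M crystallins are given as a class.

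The 5 comparisons were tested with limma 3.58.1 in R 4.3.3 (lmFit, eBayes, two-sided, 1 mean per group). The fit had 8 residual and 2.08 prior degrees of freedom and a median residual SD of 0.14 on the log2 scale. Benjamini-Hochberg adjustment was made over 36741 kept probes (12854 genes) within each comparison separately, and not across the 5 comparisons. The code was tested on simulated data. Counts of genes use those whose brightest probe the software marked as above background on every array of a compared group. A group not well above background on all its arrays gives only a bound, "at least N-fold". The number of arrays limits the precision. Replicate numbers came from the labels and did not pair samples: correlations of deviations between same-numbered arrays of different groups were -0.04 to 0.02. Alternatives were other normalizations, background correction, filters, samples in the fit, left-out replicates, blocks for replicate number and slide, and the mean of a gene's probes.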

Additional observations from a re-analysis of the deposited data

Results flagged for a closer look

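The effect of the PCSK7 plus p53 morpholinos differed between 24 h and 6 h on probes of 3 crystallin genes. The measure was the interaction term of limma's fit (effect at 24 h minus effect at 6 h). Over 10840 genes, 31.0% were called lower and 22.0% higher by this term, so such calls are common. For crygn2 the difference was -1.97 on the brightest probe (adjusted p = 0.000285) and -2.36 on the other probe above background at 6 h (adjusted p = 0.000122). For crybb1 it was -2.75 on the brightest probe (adjusted p = 0.00122) and -2.65 and -2.71 on 2 others (adjusted p = 0.00353 and 0.00855), with control spots at 6 h mostly not above background, so the sizes for crybb1 are fitted and not measured. For the brightest probe of cryba1a it was 0.90 (adjusted p = 0.000865). The other probe of cryba1a gave -0.17 (adjusted p = 0.591), and with the mean of both probes the call was lost (0.36, adjusted p = 0.0583).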

How the results depend on the processing

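At 24 h the 7 crystallins kept their direction in all 17 alternatives, and all 7 were called in 15 of these and 6 in the other 2. With the replicate block, which the numbers do not support as a pairing, 7 were still called lower at 24 h, 3 were lower and 1 higher at 6 h, and the number of probes called at 24 h was 15732 against 16796 without it. The slide as a random block had a correlation of -0.12. Counts moved as follows, with the cause not tested unless the setting itself gives it. The authors' deposited table, with 19838 probes, gave 8000 probes called at 24 h, 10041 at 6 h, 15449 between the times in PCSK7+p53 embryos and 15585 in controls (32985 and 33098 with all probes), and 8332 for the difference between effects (17059 with all probes), against 21910 at 6 h with all probes. The count of crystallins called higher at 6 h, 1, was 0 with normexp, 0 when probes had to be above background in both groups, 2 in the fit of only those 2 groups, and 0 to 1 with a replicate left out. Requiring signal in both groups also left 3 of 6 crystallins called higher at 24 h than at 6 h in controls, and 1 of 2 called lower in the difference between effects, since fewer genes were tested. With the mean of a gene's probes 0 crystallins were called higher in that difference. With a replicate left out, the gene lists together had 11 to 16 genes called higher at 24 h (17 with all arrays), and other crystallins 2 to 4. With normexp, signs turned at 6 h for crygn2 (from 0.33 to -0.062, neither called) and crybb1. The value of crybb1 went from 1.15, which was called, to -0.28, which was not. The difference between effects of cryba2a turned from -0.31 to 0.29 with the mean of probes, and neither was called. The difference for cryba4, 0.01, was -0.076 with quantile normalization, -0.013 with cyclic loess, -0.34 with normexp, -0.11 in the deposited table, -0.052 with the mean of probes and -0.15 to 0.22 with a replicate left out. Normexp used the median foreground signal, since the files used here held no mean signal, and with local background capped at a high percentile of each array, a choice made after seeing the data because the uncapped fit failed on 3 arrays. It moved the share of calls that were higher to 34.3% at 24 h and 26.7% at 6 h, against 45.1% and 47.7% in the main setting, and the median of all probes at 24 h to -0.12. Dim spots limit cryaa at both times and cryba1b and cryba2b at 6 h, and control spots limit crybb1 at 6 h.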
